A study of Mus musculus with 8 samples.

Results

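The genes described here are 60 genes of the Wnt pathway, taken by gene symbol from a table of 55558 mouse genes. They comprise 16 ligand genes, 15 receptor and co-receptor genes, 13 genes of secreted modulators, 7 of membrane modulators, and 9 of cytoplasmic or nuclear components and transcriptional targets. Their expression was compared between mK4 and mK3, a pair of wild-type mouse kidney cell lines that received no treatment and were kept in DMEM with fetal bovine serum. The labels give mK4 as metanephric mesenchyme that has differentiated towards epithelium and mK3 as metanephric mesenchyme that is uninduced. RNA was sequenced from 3 libraries of mK4 and 3 of mK3, and 1 library of each line was profiled by ATAC-seq, which marks the open DNA that a transposase can reach. Each state is represented by 1 cell line, so the state and the line cannot be told apart.

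Wnt proteins are secreted lipid-modified signals. They bind Frizzled receptors together with the co-receptors Lrp5 or Lrp6, which stops a cytoplasmic complex of Axin, Apc and kinases from destroying beta-catenin, and beta-catenin then acts with Tcf and Lef factors on target genes. Other Wnt signals pass through Ror or Ryk receptors or through the planar cell polarity branch. Secreted Frizzled-related proteins and Dickkopf proteins modulate or block the signal outside the cell, while R-spondins prolong it by holding the ubiquitin ligases Znrf3 and Rnf43 away from the receptors. In the embryonic kidney, Wnt9b from the ureteric bud induces the mesenchyme, and Wnt4 made by the induced mesenchyme drives its change into epithelium.

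The RNA libraries held 137559391 to 152952351 counts. Levels are given as CPM, which are gene counts scaled to the library total and adjusted by TMM, a method that corrects for differences in library composition, in the order of replicates 1, 2 and 3. A floor of 3 counts per library corresponded to 0.0197 to 0.022 CPM in mK4 and 0.0209 to 0.0242 CPM in mK3, and it covers counting error only. A gene was called when its adjusted p was under 0.05. Whether the replicates are independent cultures is not stated, and p-values therefore reflect variation among the 6 libraries, possibly only technical.

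The markers of the labelled states were only partly present. In mK4, the epithelial cadherin gene Cdh1 had 59, 0 and 59 counts, against 0 in every mK3 library, and the epithelial genes Krt18 and Cldn4 were at 0 in every library of both lines. Epcam was at 0 in every mK4 library and had 0, 0 and 90 counts in mK3. Of the 6 epithelial markers, only the kidney cadherin gene Cdh16 passed the filter on low counts, and it was called higher. It was at 83.1, 80.5 and 89.1 CPM in mK4 and at 0 in every mK3 library. The summed level of the 6 markers was 80.6 to 89.5 CPM in mK4, nearly all of it Cdh16, and 0 to 0.725 CPM in mK3. Of 7 nephron progenitor markers, which mark uninduced mesenchyme, Six2 had 0 counts in every mK4 library, against 59, 15 and 61 in mK3, and Cited1 had 0, 11 and 0 counts in mK4, against 6, 0 and 0 in mK3. Eya1 and Sall1 of the same list were higher in mK4, at 159 to 221 CPM in mK4 against 9.53 to 11.1 CPM in mK3 for Eya1, and at 10.1 to 10.4 CPM in mK4 against 0 in mK3 for Sall1. Osr1 of this list was called lower in mK4, at 1.99 to 2.43 CPM in mK4 against 10.6 to 12.1 CPM in mK3. Of the 4 tested genes of the list, 2 were called higher and 2 lower. The summed level of this list was 173 to 234 CPM in mK4 and 20.8 to 22.2 CPM in mK3. Eya1 alone made up 159 to 221 CPM of it in mK4. Summed over 7 markers of induced mesenchyme and renal vesicle, of which Fgf8 was at 0, the level was 1710 to 1798 CPM in mK4 and 8.5 to 9.07 CPM in mK3, and the cadherin gene Cdh6 alone made up 1612 to 1711 CPM of it in mK4 and 0 in mK3. Summed over 8 stromal and fibroblast markers, none of which was at 0 in all libraries, it was 82.4 to 84.0 CPM in mK4 and 2418 to 2869 CPM in mK3. These levels moved with the line, as did every called Wnt gene below, and their part in the Wnt results was not tested. Wnt4 and Ccnd1, described below, are themselves among the 7 markers of induced mesenchyme and renal vesicle. In bulk RNA, fewer cells of a type and less RNA per cell cannot be told apart.

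A total of 48 of the 60 Wnt genes passed the filter on low counts. Of these, 17 were called higher in mK4, against 20.8% of all 20405 tested genes, and 17 were called lower, against 19.5% of all tested genes. In either direction this was 34 of 48, against 40.3% of all tested genes. The same shares of all tested genes stand beside the class counts below. A gene that passed the filter only through the line where it is high had to differ, so the share of Wnt genes called is not support for a difference. Among the 27 Wnt genes that reached 1 CPM or more in each of the 6 libraries, as CPM before TMM scaling, 20 were called (74.1%), against 49.4% of 12490 genes under the same filter. Their median absolute log2 fold change was 0.79, against 0.46. The median signed log2 fold change of the 48 genes was -0.01, against 0.02 for all tested genes. Of all 60 genes, 5 were at 0 in all libraries, 6 were at 0 in every mK4 library only, and 6 were at 0 in every mK3 library only.

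Among the receptor genes, Ror1 and Ror2, which encode closely related receptor tyrosine kinases for Wnt5a-type signals, each had an ATAC-seq peak at the start in the line where its RNA was higher and none there in the other. The sequences printed here are the 250 bases before each annotated start, shown because they hold these peaks. They come from RefSeq in the build GRCm38.p6, the same build as mm10. The windows of Ctnnb1, which also held a peak in the mK3 list only, are not printed. Capitals mark the bases under the peak, and each sequence reads 5′ to 3′ on the strand of the gene. The Ror1 window lies at chr4:100095541-100095790 on the plus strand, with 148 bases under the mK4 peak at chr4:100095643-100096135. The Ror2 window lies at chr13:53286125-53286374 on the minus strand, with 170 bases under the mK3 peak at chr13:53286063-53286294.
Ror1, capitals under the mK4 peak: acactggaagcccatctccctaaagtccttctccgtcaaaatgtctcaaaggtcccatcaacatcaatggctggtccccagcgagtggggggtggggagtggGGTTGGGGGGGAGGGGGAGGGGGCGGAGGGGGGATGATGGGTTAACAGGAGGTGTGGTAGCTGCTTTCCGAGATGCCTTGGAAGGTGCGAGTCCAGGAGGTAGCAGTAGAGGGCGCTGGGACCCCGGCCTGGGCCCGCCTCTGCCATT
Ror2, capitals under the mK3 peak: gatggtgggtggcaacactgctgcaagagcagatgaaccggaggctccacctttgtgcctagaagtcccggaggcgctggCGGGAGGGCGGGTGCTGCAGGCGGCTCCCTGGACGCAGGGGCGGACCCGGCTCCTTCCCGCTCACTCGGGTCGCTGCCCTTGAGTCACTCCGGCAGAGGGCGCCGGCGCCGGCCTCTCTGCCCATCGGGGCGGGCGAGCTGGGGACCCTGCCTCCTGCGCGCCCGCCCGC

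The GC content of these windows was 62.4% for Ror1 and 73.2% for Ror2. By the authors' peak caller, the Ror1 peak had a 6.66-fold enrichment and a -log10 q of 21.1, with its summit 9 bp before the start. The Ror2 peak was weaker, with a 3.22-fold enrichment and a -log10 q of 3.9, and its summit lay 25 bp before the start. It was not kept when a -log10 q of at least 5 was required. Ror2 also had a peak in mK4, where no Ror2 count was seen. That peak was inside the gene, 36932 bp after the start, with a 6.96-fold enrichment and a -log10 q of 21.5.

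Promoter windows were searched for the Tcf and Lef binding motif, spelled CTTTGAA or CTTTGAT and read on both strands. A window is the 250 bases before a RefSeq start, and 39 of the 60 Wnt genes had a start in the table, with 49 windows between them. The motif was in 3 of the 49 windows (6.12%), against 2457 of 32851 windows of all genes (7.48%). The 3 stretches follow, with the motif in capitals, because Wnt genes are themselves known among the targets of the pathway.
Wnt5b, chr6:119449440-119449468, minus strand: agtaagtctctCTTTGATctgctccctgt
Wnt11, chr7:98835050-98835078, plus strand: gacgtgggcggATCAAAGcgacggtccgc
Dkk1, chr19:30549596-30549624, minus strand: tcctcccaaagCTTTGAAatcccatcccg

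The motif lay 71 bases before one of the Wnt5b starts, 51 before a Wnt11 start, where it reads on the opposite strand, and 117 before the Dkk1 start. A match is a description of the letters and not of binding. The windows of Wnt genes had a median GC content of 66.4%, against 52.4% for all windows, and a median observed-to-expected CpG ratio of 0.751, against 0.374.

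Called ligand genes were mostly higher in mK4. Of 16 ligand genes 12 were tested, of which 6 were called higher, 1 was called lower and 5 were not called. Of all tested genes, 20.8% were called higher and 19.5% lower. The 6 genes called higher were under 1 CPM in every mK3 library and passed the filter through mK4, so their count is not support for a difference. With 1 CPM or more required in all 6 libraries, 1 ligand gene was tested and 0 were called. Wnt4, the signal of the mesenchyme-to-epithelium transition, was at 11.98, 11.4 and 13.4 CPM in mK4, against 0.369, 0 and 0.773 CPM in mK3. Every mK4 library lay above every mK3 library, and the mK3 libraries ranged from 0 to 96 counts. The log2 fold change was 5.01 ± 1.24 (SE, n = 3 each; edgeR quasi-likelihood test, adjusted p = 0.0202). The call was lost when any single mK4 library was left out, with adjusted p from 0.0504 to 0.0516, and without mK3 replicate 1 (adjusted p = 0.0691). Without mK3 replicate 3 the log2 fold change was 6.03.

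Wnt7b, which in the kidney is known for its role in the medulla and collecting ducts, was at 9.85, 9.38 and 13.9 CPM in mK4 and at 0 in every mK3 library. Against the floor this is at least 457-fold higher (edgeR quasi-likelihood test, adjusted p = 0.000163). Wnt7a, a close relative, had 30, 90 and 329 counts in mK4 and 0 in every mK3 library, at least 41.4-fold higher on the mean (edgeR adjusted p = 0.0135). The lines did not overlap, but the mK4 libraries of Wnt7a differed by 9.97-fold among themselves.

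Wnt6 and Wnt10a are neighbouring genes on chromosome 1, 6697 bp apart, and both were higher in mK4. Wnt6, which in cultured mesenchyme is known as an inducer of tubules, was at 3.23, 2.17 and 2.05 CPM in mK4, against 0, 0 and 0.0966 CPM in mK3, with a log2 fold change of 6.27 ± 1.48 (SE; edgeR adjusted p = 0.017). Its lines were separated in every library, and without mK4 replicate 1 the adjusted p was 0.0553. The size of the fold rests on the 12 counts of mK3 replicate 3, without which mK3 was at 0. Wnt10a, a ligand of the beta-catenin branch, had 166, 101 and 113 counts in mK4 and 0 in every mK3 library, at least 36.3-fold higher (edgeR adjusted p = 0.0018). Wnt5b, a relative of Wnt5a that acts mostly outside the beta-catenin branch, was at 2.16, 2.07 and 2.19 CPM in mK4, against 0.139, 0.0982 and 0.0483 CPM in mK3. Its mK4 libraries were nearly equal and far above those of mK3, with a log2 fold change of 4.47 ± 0.47 (SE; edgeR adjusted p = 0.000683).

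Wnt2, a ligand of the beta-catenin branch known from lung mesenchyme, was the ligand gene called lower. It was at 0 in every mK4 library, against 4.36, 6.70 and 0.596 CPM in mK3. The mK3 libraries differed by 11.2-fold among themselves, and the level in mK4 was at least 177-fold lower on the mean (edgeR adjusted p = 0.00863).

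The 5 tested ligand genes that were not called differed widely between replicates or had few counts. Wnt5a, the main ligand of the Ror receptors, was at 12.5, 2.40 and 13.3 CPM in mK4, against 4.54, 3.87 and 5.81 CPM in mK3 (log2 fold change 0.99 ± 0.61, edgeR adjusted p = 0.254). Replicate 2 of mK4 lay below all mK3 libraries and the others above them, and without it the log2 fold change was 1.45 with an adjusted p of 0.00771. Wnt9a was at 1.88, 1.76 and 2.03 CPM in mK4, against 0.174, 0.363 and 0 CPM in mK3 (edgeR adjusted p = 0.0779, and 0.00943 without mK3 replicate 3). Its libraries did not overlap between the lines. Wnt10b had 14, 22 and 0 counts in mK4, against 94, 103 and 125 in mK3 (edgeR adjusted p = 0.0802, and 0.0152 without mK4 replicate 3). Wnt11, a signal of the ureteric bud tip, had 34, 0 and 0 counts in mK4, against 116, 50 and 126 in mK3 (edgeR adjusted p = 0.221, and 0.00772 without mK4 replicate 1). For these genes too the lines did not overlap, with mK4 on the lower side. Wnt2b had 39, 0 and 145 counts in mK4, against 111, 88 and 24 in mK3 (edgeR adjusted p = 0.869). Of the untested ligand genes, Wnt3, Wnt3a and the bud inducer Wnt9b were at 0 in all 6 libraries, and Wnt16 had 6, 8 and 6 counts in mK4 and 0 in every mK3 library.

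**Figure D1:**
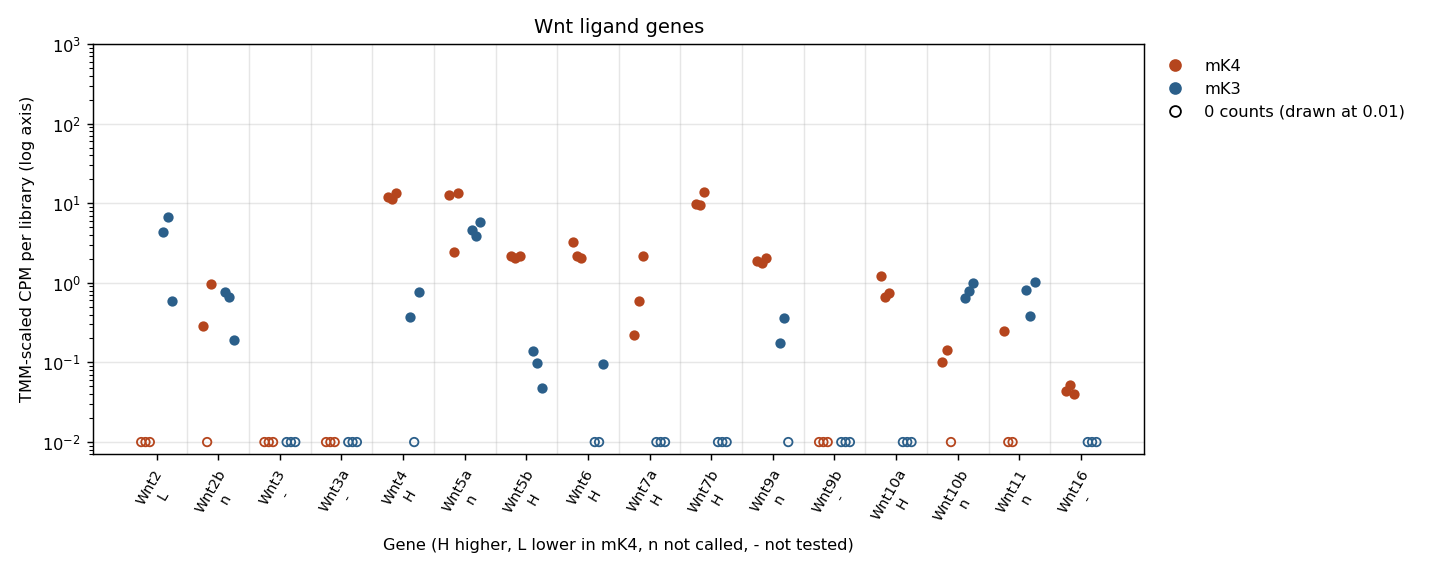
Expression of the 16 Wnt ligand genes in each library, as TMM-scaled CPM on a log axis, with mK4 to the left of mK3 for each gene; each point is 1 library and open circles are libraries with 0 counts. Wnt7b stands at 9.38 to 13.9 CPM in mK4 and at 0 in mK3, while Wnt2 is at 0 in mK4, and Wnt3, Wnt3a and Wnt9b are at 0 throughout.

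Receptor and co-receptor genes were split between the lines. Of 15 genes 14 were tested, of which 6 were called higher, 6 lower and 2 were not called. Ror1 was at 121, 126 and 70.9 CPM in mK4, against 4.59, 10.97 and 7.80 CPM in mK3. The lowest mK4 library was above the highest mK3 library, and the log2 fold change was 3.77 ± 0.40 (SE, n = 3 each; edgeR adjusted p = 0.000747). Ror2 had 0 counts in every mK4 library, against 56.7, 38.2 and 55.1 CPM in mK3, which are 8150, 5057 and 6847 counts. This is at least 2276-fold lower in mK4 (edgeR adjusted p = 0.000101), so the paired receptor genes ran in opposite directions. Ryk, which encodes a further Wnt receptor with an inactive kinase domain, was at 129, 120 and 129 CPM in mK4, against 184, 182 and 201 CPM in mK3, a log2 fold change of -0.58 ± 0.07 (edgeR adjusted p = 0.00113).

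The co-receptor genes also ran in opposite directions. Lrp5 was at 127, 142 and 184 CPM in mK4, against 69.8, 40.2 and 48.9 CPM in mK3, and was called higher (log2 fold change 1.51 ± 0.24, edgeR adjusted p = 0.00369). Lrp6 was at 312, 286 and 272 CPM in mK4, against 426, 425 and 422 CPM in mK3, and was called lower (log2 fold change -0.55 ± 0.07, edgeR adjusted p = 0.00115). Neither gene overlapped between the lines, and the Lrp6 libraries of mK3 were nearly equal.

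Among the 10 Frizzled genes, 4 were called higher and 3 lower. Fzd6, known for its part in planar cell polarity, was at 27.8, 27.7 and 29.6 CPM in mK4, against 12.1, 10.9 and 10.1 CPM in mK3 (log2 fold change 1.36 ± 0.11, edgeR adjusted p = 0.000233). Fzd4, also the receptor of Norrin, was at 2.76, 2.88 and 2.62 CPM in mK4, against 1.11, 1.47 and 1.03 CPM in mK3 (log2 fold change 1.19 ± 0.24, edgeR adjusted p = 0.00932). Their libraries were tightly grouped in both lines. Fzd5 was at 6.27, 6.38 and 6.72 CPM in mK4, against 3.31, 3.87 and 4.28 CPM in mK3 (log2 fold change 0.76 ± 0.17, edgeR adjusted p = 0.0122). Fzd7 was at 15.1, 16.3 and 18.03 CPM in mK4, against 10.6, 10.3 and 9.94 CPM in mK3 (log2 fold change 0.68 ± 0.12, edgeR adjusted p = 0.00475). These were the smaller of the increases, and again no library crossed between the lines.

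In the other direction, Fzd8 was at 6.15, 5.26 and 5.09 CPM in mK4, against 22.1, 17.8 and 19.4 CPM in mK3 (log2 fold change -1.85 ± 0.15, edgeR adjusted p = 0.000217). Fzd1 was at 6.01, 5.72 and 7.35 CPM in mK4, against 21.5, 19.2 and 20.8 CPM in mK3 (log2 fold change -1.69 ± 0.14, edgeR adjusted p = 0.000275). Both genes encode receptors of the beta-catenin branch, and their mK3 libraries lay well above those of mK4. Fzd2 was at 5.58, 4.05 and 3.76 CPM in mK4, against 8.99, 8.14 and 8.71 CPM in mK3 (log2 fold change -0.95 ± 0.20, edgeR adjusted p = 0.00984). Fzd3, another planar cell polarity receptor, overlapped between the lines at 30.0, 36.6 and 34.1 CPM in mK4, against 32.5, 28.1 and 24.4 CPM in mK3 (log2 fold change 0.25 ± 0.14, edgeR adjusted p = 0.213). Fzd9 had at most 16 counts in any library and was not called (edgeR adjusted p = 0.51, and 0.0343 without mK4 replicate 2), and Fzd10 was at 0 in all 6.

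**Figure D2:**
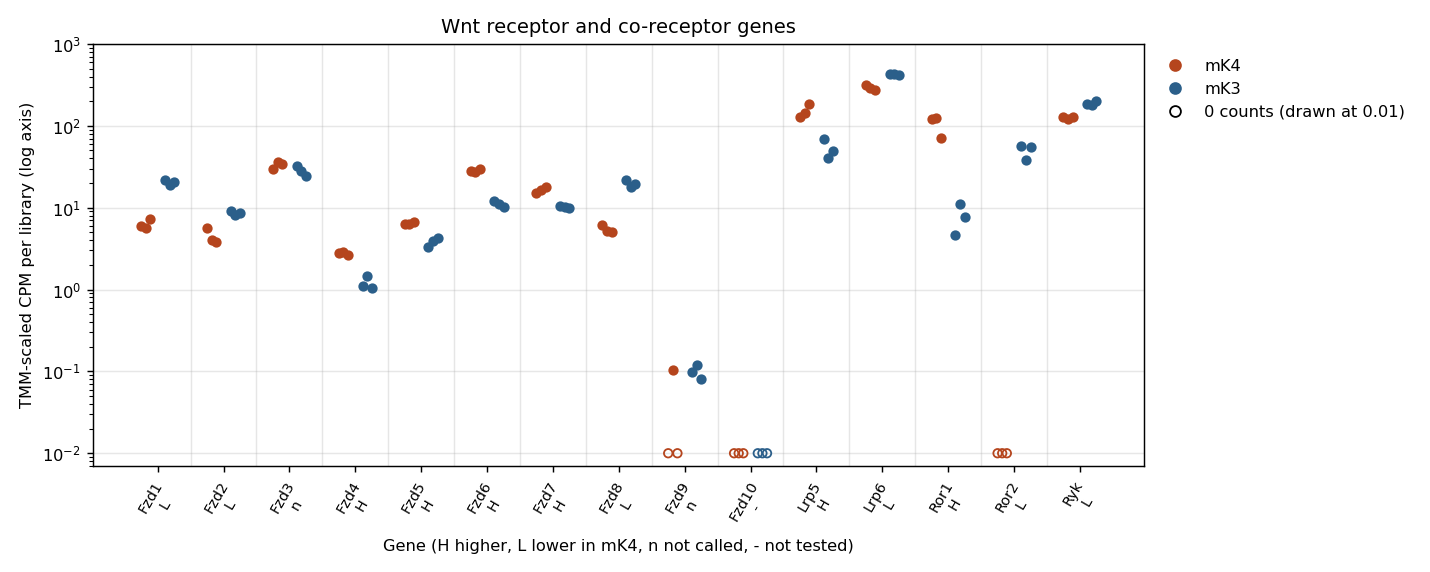
Expression of the 15 Wnt receptor and co-receptor genes in each library, as TMM-scaled CPM on a log axis, with mK4 to the left of mK3 for each gene; points are libraries and open circles are libraries with 0 counts. Ror1 is higher in mK4 at 70.9 to 126 CPM and Ror2 is at 0 there, while Fzd1 and Fzd8 lie below mK3.

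Called genes of secreted modulators were mostly higher in mK3, where 7 of the 8 stromal and fibroblast markers, but not Foxd1, were also higher. Of 13 genes 9 were tested, of which 1 was called higher, 6 were called lower and 2 were not called. Of all tested genes, 20.8% were called higher and 19.5% lower. Several of the genes called lower were at or near 0 in mK4 and passed the filter only through mK3. Rspo2, an R-spondin that amplifies Wnt signals, had 0 counts in every mK4 library, against 342, 353 and 343 CPM in mK3. The mK3 libraries were nearly equal, at 42591 to 49209 counts, and the level in mK4 was at least 15752-fold lower (edgeR adjusted p = 7.55e-06). Rspo3, a second R-spondin, was at 5.55, 5.66 and 6.12 CPM in mK4, against 69.9, 69.9 and 56.2 CPM in mK3. It remained clearly detected in mK4 and was lower there by a log2 fold change of -3.50 ± 0.13 (SE, n = 3 each; edgeR adjusted p = 1.78e-05). Rspo1 had 0, 23 and 0 counts in mK4 and 0, 17 and 0 in mK3, and was not tested.

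The secreted Frizzled-related genes ran in opposite directions. Sfrp1 was at 139, 136 and 144 CPM in mK4, against 1.52, 3.23 and 0.282 CPM in mK3. The mK3 libraries differed by 11.4-fold among themselves, yet all lay far below mK4 (log2 fold change 6.38 ± 0.85, edgeR adjusted p = 0.00185). Without mK3 replicate 2 the log2 fold change was 7.27. Sfrp2 was at 0.315, 0.105 and 0 CPM in mK4, against 196, 194 and 197 CPM in mK3 (log2 fold change -10.47 ± 0.90, edgeR adjusted p = 0.000324). Its mK4 libraries held 43, 16 and 0 counts, so that the fold change rests on few counts there, and it was -11.83 without mK4 replicate 1. Sfrp4 had 28, 0 and 0 counts in mK4, against 1007, 1066 and 754 in mK3 (log2 fold change -6.70 ± 1.52, edgeR adjusted p = 0.0144), and without mK4 replicate 1 the level in mK4 was 0, so that the size of the fold rests on that library. Frzb, also called Sfrp3, had 0 counts in every mK4 library, against 330, 133 and 463 in mK3, at least 107-fold lower (edgeR adjusted p = 0.00249). None of the 4 genes overlapped between the lines. Sfrp5 had 0, 0 and 7 counts in mK4 and 0 in every mK3 library, and was not tested.

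Among the Dickkopf genes, Dkk2 was at 3.58, 5.38 and 2.37 CPM in mK4, against 8.14, 14.9 and 11.2 CPM in mK3. The lines did not overlap, with a log2 fold change of -1.59 ± 0.37 (edgeR adjusted p = 0.0157, and 0.057 without mK4 replicate 1). Dkk3, a divergent family member whose role in Wnt signalling is less clear, overlapped at 56.1, 49.7 and 58.8 CPM in mK4, against 51.5, 50.8 and 41.1 CPM in mK3 (edgeR adjusted p = 0.246). Dkk1, an antagonist that binds Lrp6, had 0 counts in every mK4 library and 4, 0 and 0 in mK3. Wif1, which encodes a secreted Wnt-binding inhibitor, had 0, 55 and 0 counts in mK4 and 0 in every mK3 library. Neither was tested at this depth. Notum, which encodes an enzyme that removes the lipid from Wnt proteins, had 0, 25 and 19 counts in mK4, against 44, 16 and 0 in mK3 (edgeR adjusted p = 0.833).

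Of 7 genes of membrane modulators 6 were tested, of which 2 were called higher, 1 was called lower and 3 were not called. Lgr4, Lgr5 and Lgr6 encode receptors for R-spondins. Lgr6 was at 82.1, 88.9 and 75.5 CPM in mK4, against 14.4, 20.02 and 16.8 CPM in mK3, with no overlap (log2 fold change 2.27 ± 0.15, edgeR adjusted p = 0.000102). Lgr4 was at 81.5, 89.5 and 80.5 CPM in mK4, against 81.9, 85.3 and 83.6 CPM in mK3, with overlapping libraries (log2 fold change 0.00 ± 0.07, edgeR adjusted p = 0.972). Lgr5 had 0 counts in every mK4 library and 0, 0 and 37 in mK3. The ubiquitin ligase gene Znrf3 was at 116, 122 and 113 CPM in mK4, against 124, 115 and 120 CPM in mK3 (log2 fold change -0.03 ± 0.07, and 0.08 without TMM scaling; edgeR adjusted p = 0.77). Its partner Rnf43 had 34, 6 and 5 counts in mK4, against 33, 66 and 44 in mK3 (edgeR adjusted p = 0.192, and 0.031 without mK4 replicate 1).

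The remaining membrane modulators had small differences. Kremen1, which encodes a receptor for Dickkopf proteins, was at 72.5, 75.3 and 91.4 CPM in mK4, against 64.8, 56.0 and 49.7 CPM in mK3 (log2 fold change 0.49 ± 0.14, edgeR adjusted p = 0.0311). Without mK4 replicates 2 or 3 the adjusted p was 0.0609 and 0.0796, and without mK3 replicates 2 or 3 it was 0.0915 and 0.0879. Apcdd1, which encodes a membrane inhibitor of Wnt signalling, was at 8.31, 6.15 and 6.07 CPM in mK4, against 15.8, 9.85 and 14.3 CPM in mK3 (log2 fold change -0.96 ± 0.23, edgeR adjusted p = 0.0181). Without mK4 replicates 2 or 3 its adjusted p was 0.0645 and 0.0623, and without mK3 replicates 1 or 3 it was 0.0568 and 0.0573. For both genes the lines did not overlap.

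**Figure D3:**
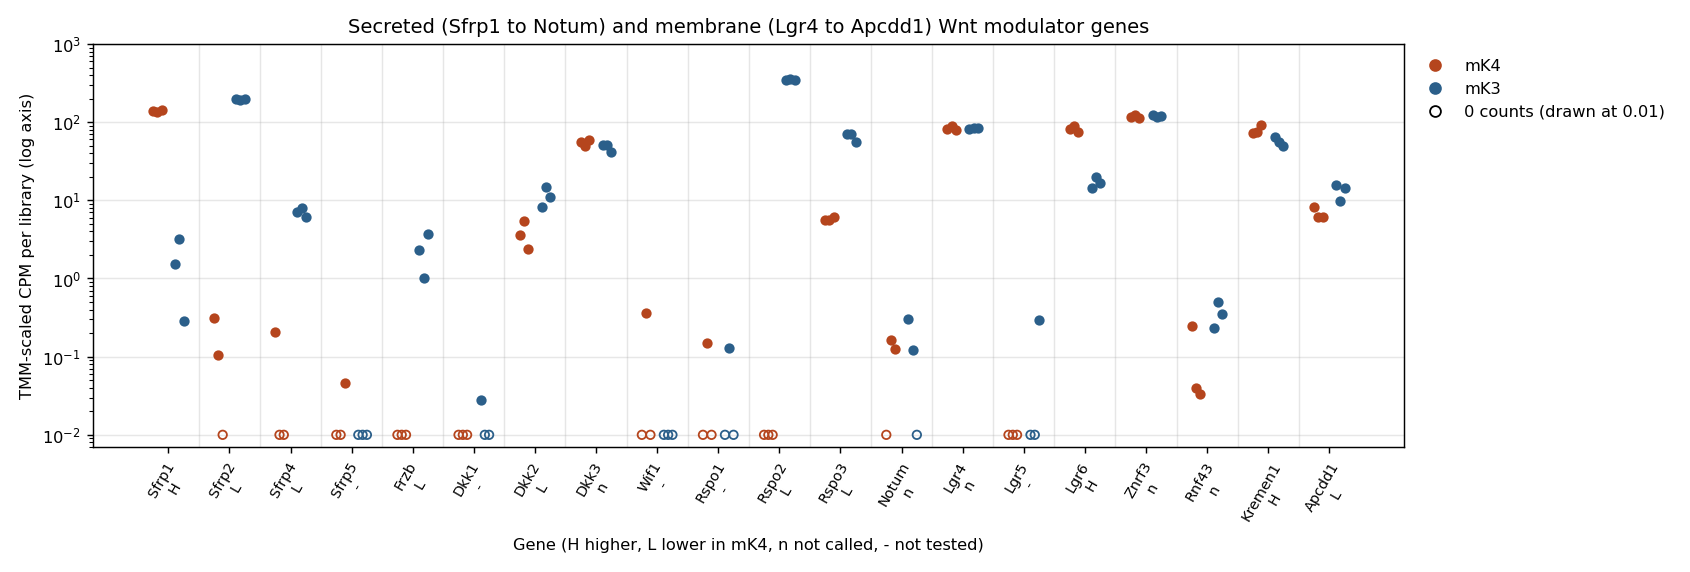
Expression of the 13 secreted and 7 membrane modulator genes in each library, as TMM-scaled CPM on a log axis, with mK4 to the left of mK3 for each gene; points are libraries and open circles are libraries with 0 counts. Sfrp1 and Lgr6 are higher in mK4, while Rspo2 is at 0 in mK4 and at 342 to 353 CPM in mK3, and Lgr4 and Znrf3 overlap.

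Of 9 cytoplasmic, nuclear or target genes 7 were tested, of which 2 were called higher, 3 lower and 2 were not called. The higher genes both encode transcription factors that bind beta-catenin. Lef1 was at 5.12, 7.63 and 7.06 CPM in mK4, against 1.35, 1.84 and 2.11 CPM in mK3 (log2 fold change 1.90 ± 0.26, edgeR adjusted p = 0.00195). Tcf7 was at 12.8, 8.99 and 5.78 CPM in mK4, against 2.19, 1.96 and 3.24 CPM in mK3 (log2 fold change 1.90 ± 0.36, edgeR adjusted p = 0.00703). The lines did not overlap for either gene. Their relatives Tcf7l1 and Tcf7l2 did overlap. Tcf7l1 was at 44.0, 52.1 and 24.3 CPM in mK4, against 30.7, 31.7 and 21.4 CPM in mK3 (edgeR adjusted p = 0.229, and 0.0376 without mK4 replicate 3). Tcf7l2 was at 24.4, 15.6 and 5.59 CPM in mK4, against 13.1, 5.999 and 15.4 CPM in mK3 (edgeR adjusted p = 0.635).

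The genes of beta-catenin, Axin1 and Apc were called lower in mK4 by small amounts. Ctnnb1, which encodes beta-catenin, was at 121, 115 and 118 CPM in mK4, against 143, 153 and 151 CPM in mK3 (log2 fold change -0.33 ± 0.06, edgeR adjusted p = 0.00665). The scaffold gene Axin1 was at 101, 111 and 98.3 CPM in mK4, against 147, 135 and 137 CPM in mK3 (log2 fold change -0.43 ± 0.08, edgeR adjusted p = 0.00529). Both genes were separated between the lines with little spread. Apc was at 46.4, 73.0 and 36.7 CPM in mK4, against 91.1, 88.7 and 94.6 CPM in mK3 (log2 fold change -0.81 ± 0.25, edgeR adjusted p = 0.042). That call was lost when any 1 library other than mK4 replicate 2 was left out, with adjusted p from 0.0773 to 0.127, and without TMM scaling (adjusted p = 0.0661). Axin2 and Nkd1, feedback targets of the pathway, had few counts or none. Axin2 had 100, 9 and 17 counts in mK4, against 0, 0 and 9 in mK3, and Nkd1 was at 0 in all 6 libraries. Axin2 did not pass the filter on low counts, so no test was made, and its highest mK4 library held most of its counts.

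**Figure D4:**
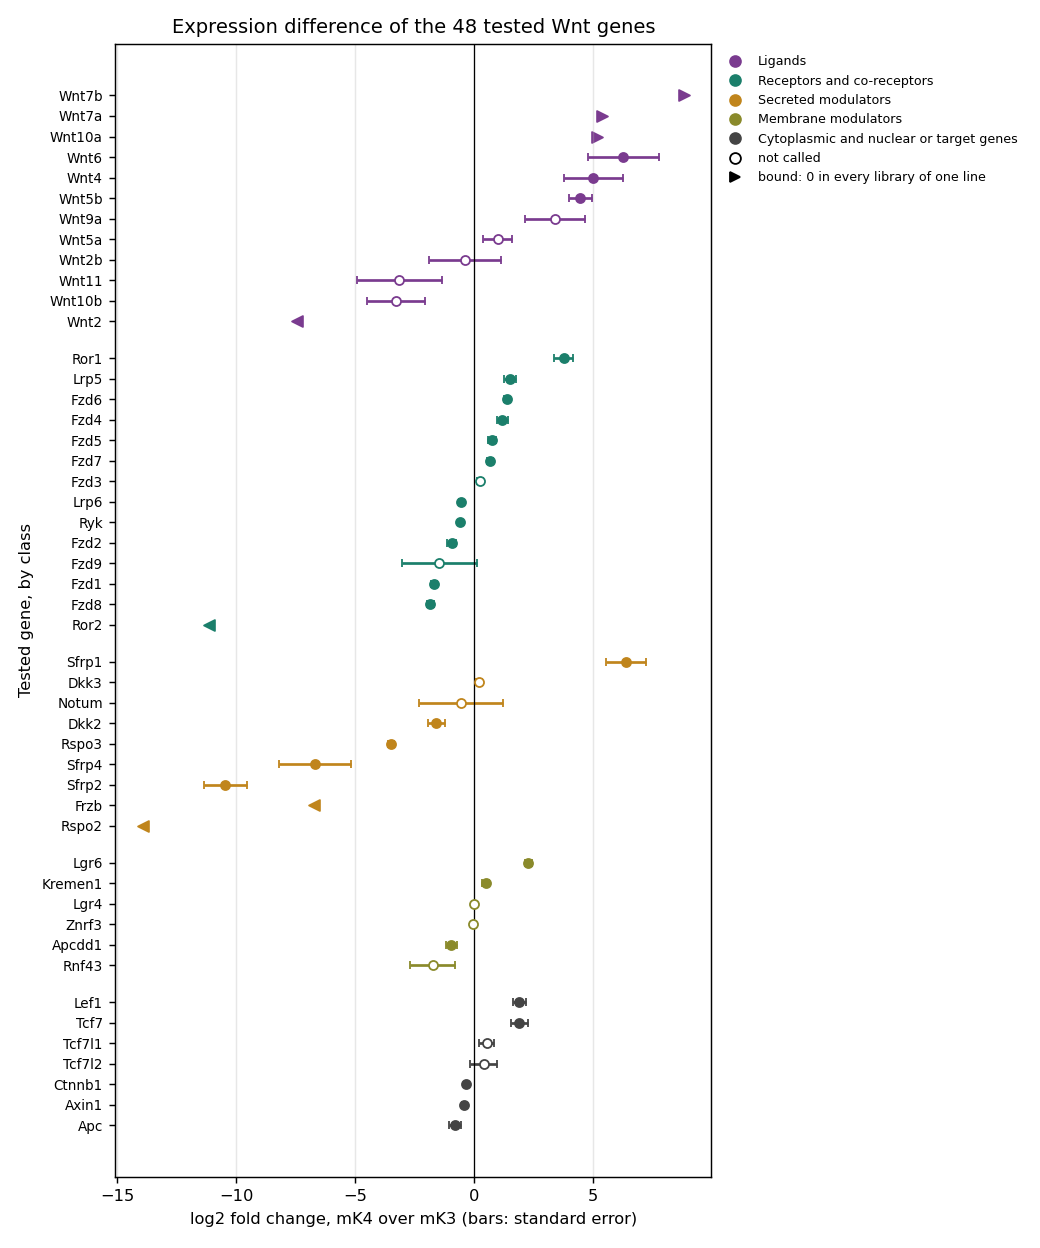
Log2 fold change of mK4 over mK3 for the 48 tested Wnt genes, by class, with bars of 1 standard error; filled points were called, open points were not, and triangles are bounds for genes at 0 in every library of a line. Ligand genes reach to the right, with Wnt7b and Wnt6 drawn furthest to the right. Secreted modulators reach to the left, with Rspo2 at the end, while most receptor, membrane and cytoplasmic genes lie within 2 log2 units of 0.

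A further 107 genes of the pathway were examined beside these 60. Of the 81 tested, 18 were called higher, 28 lower and 35 were not called, with a median log2 fold change of -0.09. In either direction 56.8% were called, against 40.3% of all tested genes, of which 20.8% were called higher and 19.5% lower. The sublist counts below stand beside these same shares, with the limit of the filter given above. The secretion gene Wls, which carries Wnt proteins to the cell surface, averaged 1473 ± 40.4 CPM in mK4 and 1129 ± 31.0 CPM in mK3 (SD, n = 3 each) and was called higher (log2 fold change 0.38 ± 0.05, edgeR adjusted p = 0.00141). Porcn, which encodes the enzyme that attaches the lipid to Wnt proteins, was not called (edgeR adjusted p = 0.655). Of 11 tested genes of extracellular or membrane factors, 3 were higher and 5 lower. Gpc4, a glypican that binds Wnt proteins, averaged 51.2 ± 5.41 CPM in mK4 and 745 ± 64.2 CPM in mK3 (log2 fold change -3.86 ± 0.11, edgeR adjusted p = 1.05e-05). Gpc6 averaged 1096 ± 126 CPM in mK4 and 450 ± 69.3 CPM in mK3 (log2 fold change 1.29 ± 0.14, edgeR adjusted p = 0.000816), and Gpc1 was also higher, so glypican genes moved both ways. Trabd2b, which encodes a membrane protease that inactivates Wnt proteins, was at 0 in every mK4 library, against 73.3 ± 23.9 CPM in mK3, at least 3337-fold lower (edgeR adjusted p = 0.000208).

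Planar cell polarity genes differed by large amounts in both directions, with 6 of 15 tested genes higher and 4 lower. Celsr2 averaged 53.5 ± 2.25 CPM in mK4 and 0.376 ± 0.087 CPM in mK3, and Celsr1 averaged 41.6 ± 4.83 CPM in mK4 and 0.167 ± 0.153 CPM in mK3 (log2 fold changes 7.15 ± 0.21 and 7.94 ± 0.92, edgeR adjusted p = 1.05e-05 and 0.00105). These encode the core cadherins of the pathway. Without mK3 replicate 1 the log2 fold change of Celsr1 was 8.71. Vangl1 and Vangl2, which encode core membrane proteins, had log2 fold changes of 2.07 ± 0.13 and 1.81 ± 0.21 (edgeR adjusted p = 0.000102 and 0.00105). Fat4, a large cadherin gene that in the kidney is known from the stroma, averaged 23.0 ± 0.576 CPM in mK4 and 264 ± 10.0 CPM in mK3 (log2 fold change -3.52 ± 0.07, edgeR adjusted p = 4.4e-06). Prickle2 was also lower, with a log2 fold change of -2.75 ± 0.18 (edgeR adjusted p = 0.000109). Prickle1 ran the other way, at 15.3 ± 2.56 CPM in mK4 and 0.104 ± 0.181 CPM in mK3. It was called higher (log2 fold change 7.14 ± 1.45, edgeR adjusted p = 0.00954). Its mK3 libraries held 45, 0 and 0 counts, so that the size of the fold rests on mK3 replicate 1. Celsr3 had 0 counts in every mK4 library and 33, 14 and 20 in mK3 (edgeR adjusted p = 0.00883). Its adjusted p by edgeR was 0.0529 without mK3 replicate 1 and 0.104 with the replicate number as a block.

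Inside the cell, 3 of 26 tested genes of the destruction complex and cytoplasm were higher and 9 were lower. Together this was 46.2%, near the 40.3% of all tested genes. Ccdc88c, which encodes a Dishevelled-binding protein, averaged 19.2 ± 4.92 CPM in mK4 and 0.11 ± 0.191 CPM in mK3 (log2 fold change 7.48 ± 1.46, edgeR adjusted p = 0.00822). Its mK3 libraries held 0, 0 and 41 counts, and without replicate 3, the library with counts, mK3 was at 0. Csnk1a1, a kinase gene of the destruction complex, averaged 78.5 ± 18.8 CPM in mK4 and 153 ± 7.09 CPM in mK3 (log2 fold change -0.96 ± 0.18, edgeR adjusted p = 0.00756). Gsk3b, another kinase gene of the complex, was not called (log2 fold change 0.01 ± 0.21, edgeR adjusted p = 0.974). Of 14 tested nuclear factors, 3 were higher and 4 lower, among them Bcl9, a beta-catenin co-factor gene, at 9.42 ± 1.41 CPM in mK4 and 2.31 ± 1.12 CPM in mK3, and the co-repressor gene Tle1, at 23.2 ± 1.07 CPM in mK4 and 67.3 ± 3.99 CPM in mK3 (edgeR adjusted p = 0.00695 and 6.35e-05).

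Called transcriptional targets of the pathway went in both directions. Of 22 listed target genes 13 were tested, of which 2 were called higher and 6 lower. The cell cycle gene Ccnd1 averaged 27.6 ± 1.12 CPM in mK4 and 7.70 ± 0.417 CPM in mK3 (log2 fold change 1.84 ± 0.10, edgeR adjusted p = 6.49e-05). In the other direction, Ccn5 averaged 11.2 ± 1.65 CPM in mK4 and 154 ± 3.76 CPM in mK3 (log2 fold change -3.79 ± 0.13, edgeR adjusted p = 1.53e-05), and Cd44 averaged 626 ± 38.5 CPM in mK4 and 1350 ± 47.9 CPM in mK3 (log2 fold change -1.11 ± 0.06, edgeR adjusted p = 7.05e-05). Myc and Jun were not called, at adjusted p of 0.278 and 0.337 by edgeR. Many of these genes are known to respond to other signals as well.

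The ATAC-seq peak lists held 34756 peaks in mK4 and 22516 in mK3, from 1 library each, so no test was made and a longer list gives more peaks at any set of genes. Among 11904 tested genes with an annotated start, 69.8% had an mK4 peak within 1 kb of it and 63.6% an mK3 peak. The shares with a peak in both lists, in mK4 only, in mK3 only and in neither were 59.2%, 10.6%, 4.39% and 25.8%. Of the 39 Wnt genes with a start, 12 had an mK4 peak within 1 kb (30.8%) and 13 had an mK3 peak (33.3%). Of the 28 tested Wnt genes with a start, 10 had an mK4 peak (35.7%) and 11 an mK3 peak (39.3%), beside the 69.8% and 63.6% of all tested genes; these shares are descriptions of 1 library per line.

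None of the 13 ligand genes with a start had a peak within 1 kb in either list, including Wnt4, Wnt5b, Wnt6 and Wnt7a, which were called higher. Within 5 kb of the start, Wnt6 and Wnt10b had a peak in both lists and Wnt9a had one in mK4. The Wnt6 summits lay 1381 bp after the start in mK4 and 1387 bp after it in mK3, and the Wnt9a summit lay 1387 bp after it. Wnt4 had 1 peak in each list, and these overlapped, with summits 9733 bp in mK4 and 9769 bp in mK3 after the start. Within the gene and 1 kb to each side, Wnt5b had 6 peaks in mK4 and 2 in mK3, and Wnt7b and Wnt10a had 2 each in mK4 and none in mK3.

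Of the 6 Frizzled genes with a start, Fzd1, Fzd4, Fzd5 and Fzd7 had peaks at the start in both lists, although Fzd1 was lower in mK4 and the other 3 were higher. Fold enrichment at the strongest of these peaks was 9.16 in mK4 and 5.72 in mK3 for Fzd1, and 10.7 in mK4 and 8.19 in mK3 for Fzd4. Lgr4, Tcf7l1, Axin2 and Wif1 also had peaks at the start in both lists, as did Lef1 at its start chr3:131112791 and Tcf7l2 at chr19:55741810. At the Lef1 starts chr3:131110297 and chr3:131110323 and the Tcf7l2 start chr19:55895321, a peak within 1 kb was listed in mK4 only. No peak overlapped a Lef1 start itself. Axin2 and Wif1 had at most 100 counts in any library. Taking all annotated starts of a gene together, a start peak in mK4 only was listed for Ror1, which was higher in mK4, and for Rnf43, which was not called (log2 fold change -1.75). A start peak in mK3 only was listed for Ror2, Dkk2 and Ctnnb1, at -log10 q of 3.9, 4.2 and 3.3, and all 3 genes were lower in mK4. With a -log10 q of at least 5 required, none of these 3 peaks was kept.

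Across the whole gene and 1 kb to each side, the 60 Wnt genes held 88 peaks in mK4, of which 51 overlapped no mK3 peak (58.0%, against 53.0% of all mK4 peaks), and 59 peaks in mK3, of which 21 overlapped no mK4 peak (35.6%, against 28.1% of all mK3 peaks). The 17 genes called higher held 38 peaks in mK4 and 18 in mK3, the 17 called lower held 17 in mK4 and 21 in mK3, and the 14 tested but not called held 28 in mK4 and 15 in mK3. Over all tested genes with coordinates, the ratio of mK4 to mK3 peaks was 1.86 in genes called higher, 1.15 in genes called lower and 1.37 in genes not called. Lgr6 had 7 peaks in mK4 and 2 in mK3, all inside the gene with summits 14109 bp or more after the start. Rspo2 had 2 peaks in mK4 and 5 in mK3. The Rspo2 peak at chr15:43158074-43158839 in mK4, where no Rspo2 count was seen, had an 11.35-fold enrichment and overlapped an mK3 peak of 5.97-fold enrichment. No peak was listed in either line across Sfrp1, Sfrp2, Frzb, Rspo3, Wnt2 or Wnt7a, which were all called.

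**Figure D5:**
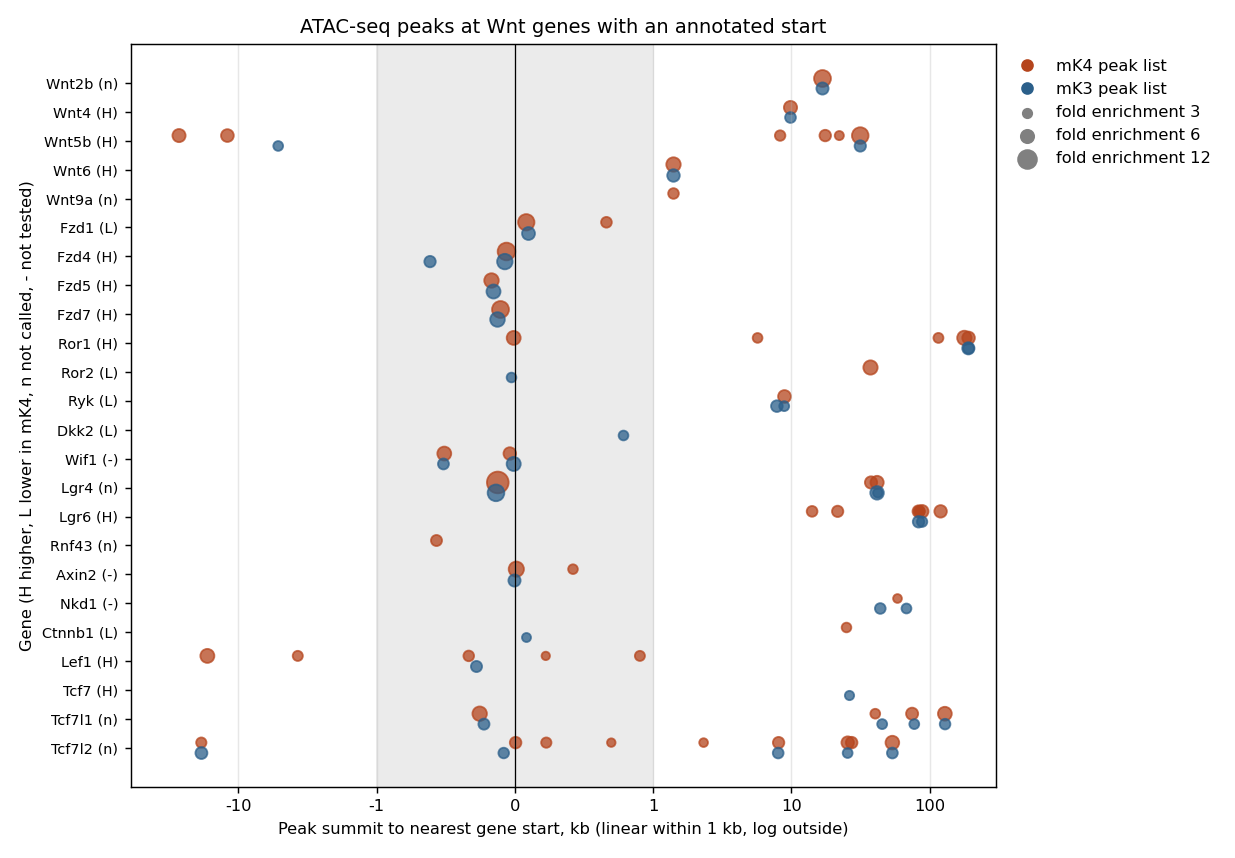
Distance in kb from the nearest annotated start to the summit of each ATAC-seq peak within a gene or 1 kb of it, for Wnt genes with a start, on an axis that is linear within 1 kb (shaded) and logarithmic outside; upper points are mK4 peaks, lower points are mK3 peaks, and point area follows fold enrichment. Fzd1, Fzd4, Fzd5, Fzd7 and Lgr4 have peaks at the start in both lists, Ror1 in mK4 only and Ror2 in mK3 only, and the ligand genes have none within 1 kb.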

How the data were processed

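RNA was measured in 3 libraries per line, rRNA-depleted and strand-specific per the labels' protocols, and ATAC-seq in 1 library per line. The authors deposited raw read counts, as whole numbers, of 55558 genes, 1196 miRNAs and 2250 circular RNAs, and 1 peak list per line. Per the file's narrowPeak columns, the deposited lists give a fold enrichment (a ratio) and a -log10 q for each peak, as the authors' caller wrote them. Per the submitters' processing notes, the tools included STAR 2.7.10a, HTSeq 2.0.2, Bowtie2 and MACS3 with the build mm10. Settings for counting (strand included) and peak calling are stated nowhere in the labels or headers.

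Genes were fitted in R 4.3.3 with edgeR 4.0.16 (filterByExpr, TMM, robust quasi-likelihood test, mK4 over mK3), with Benjamini-Hochberg adjustment over 20405 genes and calls at 0.05. The standard error is the absolute log2 fold change divided by the square root of F. Folds for genes at 0 in every library of a line are bounds: the mean CPM of the other line over the largest floor, 3 counts in 1 library, of the line at 0. DESeq2 1.42.0 was an alternative, and the steps were tested on simulated data. Same-numbered libraries of the lines deviated independently of each other (correlations -0.019, 0.021 and 0.007). No 2 libraries agreed within sampling noise. Peaks were intersected in Python 3.11.15 with pandas 2.3.3 and NumPy 2.4.6; peaks of the lines overlap at 1 bp or more. Starts and sequences are RefSeq's for GRCm38.p6; 21 of the 60 genes had no start in the table used. The transcript lengths needed to compare levels between genes were not used here, so levels are compared only between lines. The members, lists and tests were chosen with earlier results of these data known. Called genes, genes at 0 in a line and Wnt4, Wnt9b, Wnt11, Lef1, Axin2 and Ctnnb1 are given by library. Up to 4 other pathway genes per sublist and direction, those with the smallest adjusted p, could be named. Porcn, Gsk3b, Myc, Jun and Prickle1 were added after their values were seen. The values of 1 target gene are not reported here.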

Additional observations from a re-analysis of the deposited data

How the results depend on the processing

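Of the 34 called Wnt genes, 28 kept the call in every alternative that tested them (14 higher, 14 lower), and Wnt4, Wnt6, Dkk2, Kremen1, Apcdd1 and Apc lost it in at least 1. With at least 1 CPM before TMM scaling required in all 6 libraries, 9 Wnt genes were called higher and 11 lower, since fewer genes were tested, 27 against 48. Leaving out 1 library at a time gave 15 to 17 higher and 15 to 17 lower, and for the other pathway genes 18 to 19 higher and 20 to 25 lower. With the replicate number as a block, 15 Wnt genes were called higher and 16 lower, of the other pathway genes 18 and 20, and 6410 of all genes, against 8225 without it; the numbers did not pair the libraries. DESeq2 called 18 higher and 18 lower, adding Wnt9a (adjusted p = 0.0106) and Wnt10b (adjusted p = 0.0141). Without TMM scaling the median log2 fold change of all genes was 0.13, against 0.02. Signs turned only for genes that were not called: Wnt2b was 0.22 without mK4 replicate 2, in a range from -1.93 when 1 library at a time was left out; Notum was 0.15 with the block, 0.03 without mK4 replicate 1 and 0.68 without mK3 replicate 1, in a range from -1.14; Lgr4 was -0.01 with DESeq2 or its size factors, -0.04 without mK4 replicate 2 and -0.01 without mK3 replicate 1; Znrf3 was 0.08 without TMM scaling; and Tcf7l2 was -0.11 without mK4 replicate 1, in a range up to 0.79. The cause of these changes was not tested. Start peaks numbered 10 to 15 in each list under other distances or thresholds, against 12 in mK4 and 13 in mK3. Chosen after seeing the data, a peak within 1 kb of either gene end was listed for 12 of the 39 genes with a start in mK4 and 13 in mK3, not all the same genes, and for 20 and 23 of all 60. Axin2, Wif1 and Dkk1 had too few counts to be tested at this depth.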

Other observations

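Several Wnt genes with 100 or more counts in a library varied more than 3-fold between the libraries of a line. In mK4, the largest over the smallest CPM was 12.4-fold for Axin2, 9.97-fold for Wnt7a, 5.52-fold for Wnt5a and 4.36-fold for Tcf7l2. In mK3 it was 11.4-fold for Sfrp1, 11.2-fold for Wnt2, 4.0-fold for Wnt2b and 3.71-fold for Frzb. Wnt2b ranged from 0 to 145 counts in mK4. The low or high library was not the same one throughout: Wnt5a was lowest in mK4 replicate 2, Tcf7l2 in mK4 replicate 3 and Wnt7a in mK4 replicate 1.

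Other Wnt genes lie next to each other besides Wnt6 and Wnt10a. Kremen1 and Znrf3 lie 14616 bp apart on chromosome 11, and Kremen1 was called higher while Znrf3 was not called. Wnt3a and Wnt9a lie 16098 bp apart, and Wnt3a was at 0 in all libraries while Wnt9a had 256 to 305 counts in mK4 and 0 to 48 in mK3. Of all tested genes with a start, those called higher had a start peak in mK4 only in 18.3% and in mK3 only in 1.85%, and those called lower had 5.8% and 9.48%. The part of neighbouring genes or peaks in any expression difference was not tested.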
